A study of Mus musculus with 18 samples.

Results

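The transcripts of 9 genes of the matrix metalloproteinase (MMP) system were followed in cells of the mouse pre-osteoblast line MC3T3-E1, cultured on piezoelectric fibre membranes. The genes were taken by symbol from a table of 30452 genes. They are 6 MMPs (Mmp2, Mmp3, Mmp9, Mmp10, Mmp13 and Mmp14) and 3 tissue inhibitors of metalloproteinases, or TIMPs (Timp1, Timp2 and Timp3). All 9 were in the table. The 6 groups, of 3 libraries each, were PLLA/ZnO@Col +US, PLLA/ZnO@Col -US, PLLA/ZnO +US, PLLA/ZnO -US, PLLA +US and PLLA -US. PLLA is poly-L-lactic acid, ZnO is zinc oxide, @Col names the membrane with collagen, +US names ultrasound for 10 min each day, and -US names culture without it. By the labels every group held the same line, seeded at 20000 cells per well on a 15 mm disc that had been sterilised with Co60 radiation, and was collected after 5 days. The labels do not say whether replicates were separate cultures, so p-values measure the spread between these libraries, which may be technical. The series has no library from cells on plain plastic among those analysed here, so each comparison is between membranes or between ultrasound states.

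MMPs are zinc-dependent proteases that cut collagens and other matrix proteins, and most are secreted as inactive proenzymes. TIMPs bind and block active MMPs, and TIMP2 also takes part in the activation of proMMP2 at the cell surface by MMP14. In bone, osteoblasts and their precursors make several of these proteins, and MMP13 is a collagenase whose gene is known as a target of the transcription factors Runx2 and AP-1.

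The 18 libraries held between 48307580 and 78039543 counts. Levels are given as FPKM, which divides fragment counts by transcript length and sequencing depth. Of osteoblast markers, Col1a1 was at 500 to 1165 FPKM, Spp1 at 637 to 3609 FPKM, Runx2 at 6.22 to 9.54 FPKM and Col1a2 at 266 to 747 FPKM. Of the other 7, Bglap2 reached 1.64 FPKM and Dmp1 2.46 FPKM, whereas Sp7, Alpl, Bglap, Ibsp and Phex were each below 0.75 FPKM in all 18 libraries. A group of 3 collagen libraries, replicates 1 and 3 of PLLA/ZnO@Col -US and replicate 1 of PLLA/ZnO@Col +US, stood apart from the rest. In them, 4 Y-linked genes summed to 0.185 to 0.386 FPKM, against up to 21.8 FPKM elsewhere, and Thy1 was at 0.0709 to 0.128 FPKM, against 2.55 to 5.79 FPKM. Another 4 libraries, replicates 2 and 3 of PLLA/ZnO@Col +US, replicate 3 of PLLA/ZnO +US and replicate 3 of PLLA +US, had few Y-linked reads, with sums of 2.55 to 6.10 FPKM. Of the 6 collagen libraries, replicate 2 of PLLA/ZnO@Col -US was thus the one with a sum in the range of the remaining libraries, at 21.4 FPKM against 10.5 to 21.8 FPKM. All 18 libraries carry the same cell line label. Whether the 3 libraries hold the same cells as the rest was not tested, and on the collagen membrane their cells and the membrane cannot be told apart.

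Mmp13, Mmp3 and Mmp10 lie together on chromosome 9 (GRCm38), in a run of 10 MMP genes over 427 kb. Mmp13 spans chr9:7272514-7283331, Mmp3 spans chr9:7445822-7455975 and Mmp10 spans chr9:7502352-7510240, all on the plus strand. The 250 bases before the RefSeq start of each gene (build GRCm38.p6, plus strand) are printed because these 3 genes had their highest level in the same library. Windows were available for 7 of the 9 members. Capitals mark the AP-1 motif TGANTCA and the TATA motif TATAAA. The windows are chr9:7272264-7272513 for Mmp13, chr9:7445572-7445821 for Mmp3 and chr9:7502092-7502341 for Mmp10.
Mmp13: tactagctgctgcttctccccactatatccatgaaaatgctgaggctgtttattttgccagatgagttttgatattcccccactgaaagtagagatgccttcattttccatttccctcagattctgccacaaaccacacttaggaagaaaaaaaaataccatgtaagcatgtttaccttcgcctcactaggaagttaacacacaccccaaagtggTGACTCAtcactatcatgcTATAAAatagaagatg
Mmp3: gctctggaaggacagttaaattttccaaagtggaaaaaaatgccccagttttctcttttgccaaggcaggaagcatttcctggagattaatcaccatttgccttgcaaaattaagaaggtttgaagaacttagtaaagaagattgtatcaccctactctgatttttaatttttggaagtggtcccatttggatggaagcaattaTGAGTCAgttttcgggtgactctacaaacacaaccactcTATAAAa
Mmp10: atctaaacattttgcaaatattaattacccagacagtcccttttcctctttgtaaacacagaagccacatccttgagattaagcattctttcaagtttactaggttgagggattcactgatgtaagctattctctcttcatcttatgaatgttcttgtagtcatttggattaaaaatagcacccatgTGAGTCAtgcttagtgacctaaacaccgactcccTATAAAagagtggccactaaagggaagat
Each of the 3 windows held 1 AP-1 motif, with its first base 35 bases before the start in Mmp13, 46 in Mmp3 and 63 in Mmp10. Each also held 1 TATAAA, at 16, 7 and 29 bases before the start in the same order of genes, and no AP-1 motif overlapped a TATA motif. Motifs were searched on both strands, and TGANTCA reads the same on both. The AP-1 motif was in 6.75% and TATAAA in 12.4% of all 32817 promoter windows of this length. The windows of Mmp14, Timp1, Timp2 and Timp3 held neither. A GC box, GGGCGG, was in those 4 windows and in 32.7% of all windows. A Runx motif, TGTGGT, was in the windows of Mmp13 and Mmp14 and in 14.0% of all windows. These matches describe letters in the windows and do not show binding.

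The members ranged from some of the most abundant transcripts in the cells to some near the limit of detection. By mean FPKM over the 18 libraries, Timp2 ranked 109th among all genes in the table at 354 FPKM and Timp1 138th at 279 FPKM. Mmp2 followed at 133 FPKM, Timp3 at 60.7 FPKM, Mmp14 at 56.6 FPKM and Mmp9 at 12.7 FPKM. The chromosome 9 members were scarce, with median levels of 1.30 FPKM for Mmp13, 0.905 FPKM for Mmp3 and 0.263 FPKM for Mmp10. Of the 9 members, 8 reached 1 FPKM in at least 3 libraries and were tested with 11936 genes in all. Mmp10 reached it in 2 libraries and is described without a test.

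MMP2, or gelatinase A, cuts denatured collagen and basement membrane collagen. Its transcript varied little. Mmp2 had 153, 150.3 and 149 FPKM on PLLA/ZnO@Col +US and 117 to 150.4 FPKM on PLLA/ZnO@Col -US. It had 117 to 149.9 FPKM on PLLA/ZnO +US, 105 to 139 FPKM on PLLA/ZnO -US, 127 to 162 FPKM on PLLA +US and 105 to 132 FPKM on PLLA -US. The ranges of neighbouring groups overlapped, and neighbours in the order of means differed by no more than the larger SD. The log2 fold changes of Mmp2 lay between -0.07 and 0.25 over the 7 comparisons of 2 groups, and none passed the test. Leaving out the 3 libraries that lack Y-linked reads, so that PLLA/ZnO@Col -US was replicate 2 alone, put Mmp2 at -0.09 for collagen without ultrasound. It was at 0.17 with all libraries.

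MMP9, or gelatinase B, cuts the same kinds of collagen and is in bone best known from osteoclasts. Its transcript was lowest on the collagen membrane without ultrasound. Mmp9 had 13.3, 12.7 and 16.0 FPKM on PLLA/ZnO@Col +US, against 8.19, 8.06 and 10.2 FPKM on PLLA/ZnO@Col -US. On PLLA/ZnO it had 9.46, 11.6 and 14.8 FPKM with ultrasound, against 14.6, 13.1 and 15.8 FPKM without. All 3 libraries of PLLA/ZnO@Col -US lay below those of PLLA/ZnO@Col +US and below those of PLLA/ZnO -US, while on PLLA/ZnO the ultrasound states overlapped. On PLLA the values were 11.3, 9.21 and 17.1 FPKM with ultrasound and 13.2, 16.6 and 12.7 FPKM without.

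The log2 fold change of Mmp9 with ultrasound on PLLA/ZnO@Col was 0.67 (SE 0.20, edgeR adjusted p = 0.525). Of all tested genes, 5.28% were higher with no overlap in that comparison. For collagen without ultrasound the change was -0.68 (SE 0.20, edgeR adjusted p = 0.166), where 6.31% of tested genes were lower with no overlap. The difference between the ultrasound changes on PLLA/ZnO@Col and PLLA/ZnO was 0.95 on the log2 scale (SE 0.29, edgeR adjusted p = 0.999). None of these passed the threshold of 0.05, nor did they under any of the 27 alternatives run for each. Without the 3 libraries that lack Y-linked reads, which leaves PLLA/ZnO@Col -US with replicate 2 alone, Mmp9 was at 0.88 for ultrasound on PLLA/ZnO@Col and -0.88 for collagen without ultrasound. In bulk RNA, fewer cells of a type and less RNA per cell cannot be told apart. Macrophage and osteoclast markers, 11 genes of which 5 were tested, summed to 6.52 to 37.2 FPKM on PLLA/ZnO@Col +US, against 6.65 to 34.5 FPKM on PLLA/ZnO@Col -US and 8.37 to 27.4 FPKM on PLLA/ZnO -US. Most of that sum came from Lyz2, at 5.00 to 26.8 FPKM, and Cd68, at 0.381 to 5.97 FPKM. The other 3 tested markers reached 1.68 FPKM for Csf1r, 1.64 FPKM for Itgam and 1.40 FPKM for Tyrobp, with medians between 0.790 and 1.19 FPKM over the 18 libraries. The 6 untested markers, Ptprc, Adgre1, Acp5, Ocstamp, Dcstamp and Mmp12, were at or below 0.13 FPKM in every library. The part of these markers in the level of Mmp9 was not tested.

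The stromelysins MMP3 and MMP10 cut proteoglycans and other matrix proteins and can activate other proMMPs. MMP13 is the main collagenase of mouse bone and cuts fibrillar collagen. All 3 genes peaked in replicate 2 of PLLA/ZnO@Col -US. Mmp13 had 0.121, 0.501 and 0.567 FPKM on PLLA/ZnO@Col +US, against 0.146, 16.0 and 0.220 FPKM on PLLA/ZnO@Col -US. It had 1.37, 2.15 and 1.27 FPKM on PLLA/ZnO +US, against 3.13, 2.76 and 1.60 FPKM on PLLA/ZnO -US. PLLA gave 1.34, 1.33 and 0.860 FPKM with ultrasound, against 1.33, 1.22 and 1.25 FPKM without. Apart from the 1 high library, the other 5 collagen libraries lay below all 12 libraries of PLLA/ZnO and PLLA, a pattern noticed in the values that 0.402% of tested genes share. Those 5 were the collagen libraries that lack Y-linked reads or have few, with sums of 0.185 to 6.10 FPKM. The lowest values on PLLA/ZnO +US and PLLA +US, 1.27 and 0.860 FPKM, were also those of libraries with few. The part of the Y-linked difference in the levels of Mmp13 was not tested. The high library held 5.11 times the level of the next highest of the 18.

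Mmp3 peaked in the same library, but its other collagen libraries were not all low. On PLLA/ZnO@Col +US it had no count in replicate 1 and 0.589 and 0.936 FPKM in replicates 2 and 3. On PLLA/ZnO@Col -US it had no count in replicate 1, 5.25 FPKM in replicate 2 and 0.251 FPKM in replicate 3. The 12 other libraries lay between 0.407 and 1.17 FPKM, a range that holds replicates 2 and 3 of PLLA/ZnO@Col +US. A count of 0 allows up to 3 counts, which is 0.0274 FPKM in the first of these libraries and 0.0287 FPKM in the second, for counting error only. Mmp10 had 4.46 FPKM in replicate 2 of PLLA/ZnO@Col -US and at most 1.03 FPKM in the other 17 libraries, with a lowest level of 0.117 FPKM in replicate 1 of PLLA/ZnO@Col +US. The other 7 genes of the chromosome 9 run stayed at or below 0.19 FPKM in every library. Of these, Mmp12, Mmp1b and Mmp8 were also highest in replicate 2 of PLLA/ZnO@Col -US, at 0.126, 0.156 and 0.189 FPKM. Their counts there were at most 61, and Mmp1a, Mmp27, Mmp20 and Mmp7 were highest in other libraries.

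**Figure D1:**
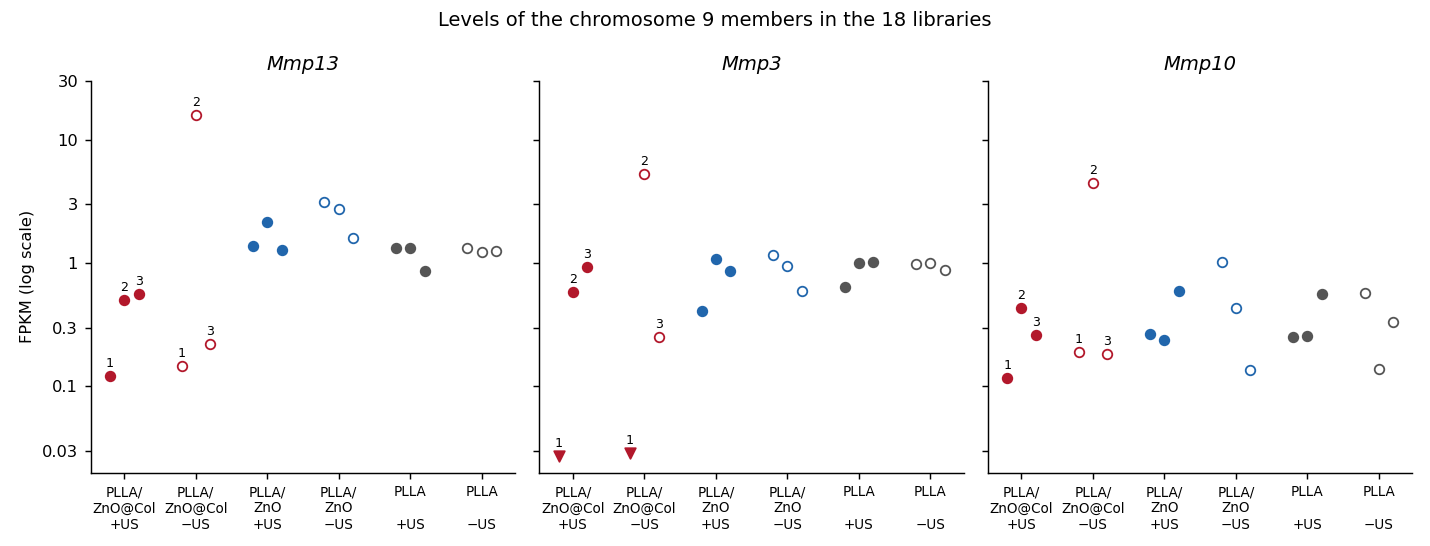
Levels of Mmp13, Mmp3 and Mmp10 in FPKM on a log axis, with the 6 groups along the x axis and 1 point per library (filled with ultrasound, open without; red PLLA/ZnO@Col, blue PLLA/ZnO, grey PLLA; numbers give the replicate on the collagen membrane). Triangles stand for a count of 0 and are drawn at the level of 3 counts. The open red point of replicate 2 is the highest of the 18 in each panel, at 16.0, 5.25 and 4.46 FPKM.

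That library differed from the others beyond the MMPs. Of all tested genes, 19% had their highest level there, as did 3 of the 8 tested members (Mmp3, Mmp13 and Timp3) and 16 of the 72 tested genes in 8 lists of related genes. Its mitochondrial genes took 4.54% of the counts, against 1.57% to 4.23% in the other 17 libraries. Its mean correlation with its own group was 0.921, the lowest of the 18. The rest of that group is replicates 1 and 3, which lack Y-linked reads and had means of 0.955 and 0.933. This value therefore cannot tell which of them is unusual. Cathepsin K, a collagen-cutting protease, was at 16.7 FPKM there and at most 8.38 FPKM elsewhere, and cathepsin L at 86.4 FPKM and at most 48.2 FPKM. The matrix proteoglycans Vcan and Dcn were at 65.7 and 23.2 FPKM, against at most 41.9 and 12.2 FPKM elsewhere. The cytokine gene Lif was at 25.5 FPKM, against at most 12.5 FPKM elsewhere, while Col1a1, at 500 FPKM, had its lowest level of all 18 libraries. Of 16 tested inducers of MMP genes, 4 were highest there, Lif among them. The others were Fgf2 at 3.94 FPKM, Hbegf at 5.24 FPKM and Ets1 at 5.90 FPKM. Elsewhere these reached at most 2.12, 4.87 and 5.59 FPKM. Among AP-1 subunit genes, Jun was at 43.4 FPKM, within the 33.1 to 58.8 FPKM of the other libraries. Fosl1 was at 77.9 FPKM, within 45.9 to 102 FPKM, and Fos, Fosb, Fosl2 and Junb also lay within the other libraries. Jund was at 21.5 FPKM, below the 23.6 to 64.5 FPKM elsewhere. The library had 21.4 FPKM of Y-linked reads, so it is not among the 3 that lack them. The part of these differences in the MMP values was not tested.

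The tests of the chromosome 9 genes on the collagen membrane turned on that 1 library. The log2 fold change of Mmp13 with ultrasound on PLLA/ZnO@Col was -3.72 (SE 1.21, edgeR adjusted p = 0.525), and without that library it was 1.06. For collagen without ultrasound it was 1.11 (SE 1.09, edgeR adjusted p = 0.774) with the library and -3.69 without it (edgeR adjusted p = 0.0107). Over the 27 alternatives of that comparison the adjusted p ranged from 0.00901 to 0.998. The lowest came from leaving out the 3 libraries that lack Y-linked reads, which gave 2.65, of the opposite sign, with the high library as the only one of PLLA/ZnO@Col -US. For collagen with ultrasound, which does not use the high library, Mmp13 was at -1.97 (SE 1.14, edgeR adjusted p = 0.605). It was between -3.74 and -0.89 over the alternatives, and the 3 libraries of PLLA/ZnO@Col +US lay below those of PLLA/ZnO +US. Of all tested genes, 5.08% were lower with no overlap there. Mmp3 gave -1.80 (SE 1.29) for ultrasound on PLLA/ZnO@Col and 1.0 (SE 1.26) for collagen without ultrasound, and neither passed. Without the high library these were 1.92 and -2.76, both of the opposite sign. They were -2.74 and 2.50 without the 3 libraries that lack Y-linked reads and passed (edgeR adjusted p = 0.0326 and 0.0243), again with the high library alone in its group. Over the 27 alternatives of each the adjusted p ran from 0.0326 to 0.999 and from 0.0243 to 0.998.

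MMP14, also called MT1-MMP, is anchored in the cell membrane, where it cuts collagen and activates proMMP2. It was the member that separated the collagen membrane most fully. Mmp14 had 79.3, 65.9 and 64.0 FPKM on PLLA/ZnO@Col +US and 66.0, 66.6 and 63.7 FPKM on PLLA/ZnO@Col -US. On PLLA/ZnO it had 47.3, 49.0 and 55.5 FPKM with ultrasound and 51.7, 43.3 and 57.1 FPKM without. PLLA gave 52.9, 49.6 and 58.5 FPKM with ultrasound and 46.4, 54.7 and 47.1 FPKM without. All 6 collagen libraries lay above all 12 others, which holds for 11 of the 11936 tested genes, or 0.0922%. The 3 collagen libraries that lack Y-linked reads had 63.7 to 79.3 FPKM and the other 3 had 64.0 to 66.6 FPKM. The highest library of the other membranes was at 58.5 FPKM. Of those other 3 collagen libraries, replicates 2 and 3 of PLLA/ZnO@Col +US had few Y-linked reads. Only replicate 2 of PLLA/ZnO@Col -US, at 66.6 FPKM, had a Y-linked sum in the range of the remaining libraries. The highest values on PLLA/ZnO +US and PLLA +US, 55.5 and 58.5 FPKM, were those of the libraries with few Y-linked reads. The part of the Y-linked difference in the levels of Mmp14 was not tested.

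TIMP2 inhibits most MMPs, and its gene gave the most abundant transcript of the 9. Timp2 had 425, 425 and 399 FPKM on PLLA/ZnO@Col +US and 443, 382 and 365 FPKM on PLLA/ZnO@Col -US. On PLLA/ZnO it had 325, 322 and 416 FPKM with ultrasound, against 279, 248 and 309.7 FPKM without. PLLA gave 340, 318 and 414 FPKM with ultrasound, against 303, 343 and 313 FPKM without. The collagen libraries, at 365 to 443 FPKM, overlapped the others in replicate 3 of PLLA/ZnO +US and replicate 3 of PLLA +US, at 416 and 414 FPKM. Both of those were among the 4 libraries with few Y-linked reads. The 3 collagen libraries that lack such reads had 425, 443 and 365 FPKM, and the part of this difference in the levels of Timp2 was not tested.

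Collagen was compared at each ultrasound state, PLLA/ZnO@Col against PLLA/ZnO. Without ultrasound, 3 members did not overlap between the groups: Mmp14 and Timp2 were higher, which 5.09% of tested genes were, and Mmp9 was lower. The log2 fold change of Timp2 was 0.54 (SE 0.14, edgeR adjusted p = 0.123) and that of Mmp14 was 0.40 (SE 0.13, edgeR adjusted p = 0.194). With ultrasound, Mmp14 did not overlap and was higher, which 10.2% of tested genes were, with a log2 fold change of 0.50 (SE 0.13, edgeR adjusted p = 0.390), and Timp2 was at 0.27 (SE 0.14, edgeR adjusted p = 0.564). By edgeR, 0 of 11936 genes (0%) passed in either comparison, with 1544 genes at an unadjusted p under 0.05 without ultrasound and 1125 with it. DESeq2 called 407 genes without ultrasound and 47 with it, and limma on log2(FPKM + 1) called 0 in both. Without the 3 libraries that lack Y-linked reads, Mmp14 was at 0.36 in both comparisons, and Timp2 at 0.42 without ultrasound and 0.21 with it. DESeq2 gave adjusted p = 0.00603 for Timp2 and 0.0448 for Mmp14 without ultrasound. Over the 27 alternatives of each result the adjusted p ran from 0.00603 to 0.921 for Timp2 and from 0.0448 to 0.965 for Mmp14.

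A contrast added after the values were seen took collagen as the mean of both ultrasound states, so that 6 libraries of PLLA/ZnO@Col stood against 6 of PLLA/ZnO. Of all tested genes, 328 (2.75%) were called, 236 of them higher and 92 lower, with 2402 at an unadjusted p under 0.05. DESeq2 called 962 and limma on log2(FPKM + 1) called 199. Among the 8 tested members, Mmp14 and Timp2 rose and none fell. Mmp14 averaged 67.6 ± 5.84 FPKM on PLLA/ZnO@Col, against 50.7 ± 5.16 FPKM on PLLA/ZnO (SD, n = 6 each), a fold change of 1.37 and a log2 fold change of 0.45 (SE 0.09, edgeR adjusted p = 0.0309). Timp2 averaged 406 ± 29.8 FPKM on PLLA/ZnO@Col, against 317 ± 56.8 FPKM on PLLA/ZnO (SD, n = 6 each), a fold change of 1.32 and a log2 fold change of 0.41 (SE 0.10, edgeR adjusted p = 0.0442). PLLA, which this contrast does not use, averaged 51.6 ± 4.71 FPKM of Mmp14 and 338 ± 39.9 FPKM of Timp2 (SD, n = 6). Because the contrast was chosen with these values in view, its p-values describe them and are not independent evidence.

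Both calls were close to the threshold. The change of Mmp14 was 0.36 to 0.59 on the log2 scale over 26 alternatives, with adjusted p from 0.000247 to 0.117, and passed in 14. It missed the threshold when any 1 of 10 libraries was left out, namely replicates 1 and 3 of PLLA -US, 1 and 2 of PLLA/ZnO -US, 1 of PLLA/ZnO@Col -US, 1 and 2 of PLLA/ZnO +US, and 1, 2 and 3 of PLLA/ZnO@Col +US. Without the 3 libraries that lack Y-linked reads, PLLA/ZnO@Col -US was replicate 2 alone and the change of Mmp14 was 0.36. Without the 4 with few, PLLA/ZnO@Col +US was replicate 1 alone, which itself lacks Y-linked reads, and the change was 0.59. The change of Timp2 was 0.32 to 0.50, with adjusted p from 0.00218 to 0.216, and passed in 4 of 26 alternatives. Of the 18 fits that left out 1 library, it kept the call in 2, those without replicate 2 of PLLA/ZnO@Col -US and without replicate 3 of PLLA/ZnO +US. In the same 2 fits, which each left a collagen group with a single library, Timp2 was at 0.32 without the 3 and at 0.50 without the 4. With the replicate number as a block Timp2 missed the threshold, at an edgeR adjusted p of 0.0549. The fold changes of both genes stayed positive in every alternative.

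**Figure D2:**
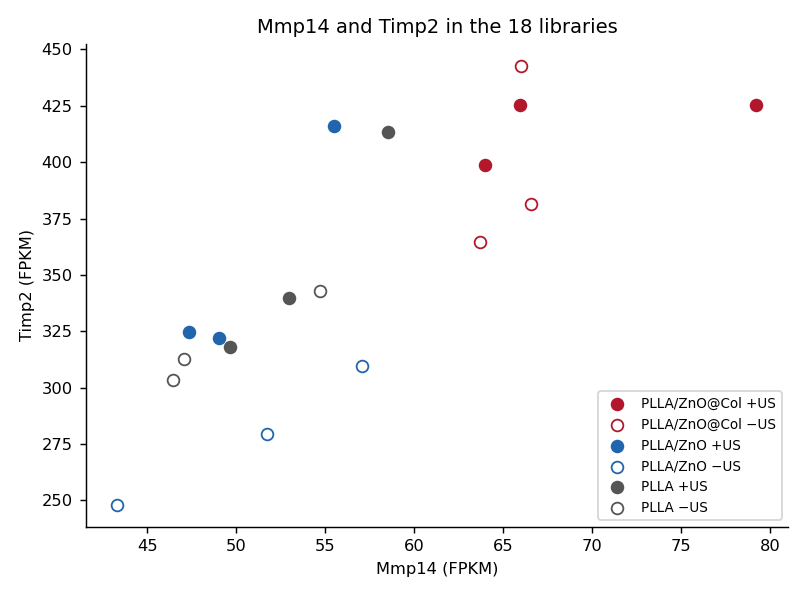
Mmp14 level (x axis, FPKM) against Timp2 level (y axis, FPKM), 1 point per library in all 18 libraries, filled with ultrasound and open without, in red for PLLA/ZnO@Col, blue for PLLA/ZnO and grey for PLLA. The 6 red points lie at 63.7 to 79.3 FPKM of Mmp14, to the right of all others, and at 365 to 443 FPKM of Timp2, where 2 points of other membranes reach them.

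The other members did not pass in the averaged collagen contrast. Mmp2 was at 0.21 (edgeR adjusted p = 0.269), Mmp9 at -0.21 (adjusted p = 0.452), Timp1 at -0.09 (adjusted p = 0.809) and Timp3 at -0.06 (adjusted p = 0.874) on the log2 scale. Without the 3 libraries that lack Y-linked reads Mmp2 was at 0.05, Mmp9 at -0.31, Timp1 at -0.05 and Timp3 at 0.17, and without the 4 with few they were at 0.29, -0.14, -0.19 and -0.17. Each of these fits left a collagen group with a single library. Mmp3 was at 0.20 (edgeR adjusted p = 0.930), at -1.69 without replicate 2 of PLLA/ZnO@Col -US and at 1.23 without the 3 libraries that lack Y-linked reads. Its sign changed in 6 of the 26 alternatives, one of which, without the 4 libraries, left PLLA/ZnO@Col +US with a single library that had no Mmp3 count. Mmp13 was at -0.43 (edgeR adjusted p = 0.806). Without replicate 2 of PLLA/ZnO@Col -US it was at -2.84 (edgeR adjusted p = 0.00315), while leaving out the 3 collagen libraries that lack Y-linked reads put it at 0.54. Over the 26 alternatives its adjusted p ran from 0.00315 to 1.0, so the directions of Mmp3 and Mmp13 on collagen rested on which libraries entered.

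TIMP1 is a secreted inhibitor that also promotes growth of several cell types, and TIMP3 is the member of the family that binds to the matrix. Timp1 had 209.8, 348 and 304 FPKM on PLLA/ZnO@Col +US, against 197, 250.1 and 307 FPKM on PLLA/ZnO@Col -US. On PLLA/ZnO it had 238, 240.1 and 364 FPKM with ultrasound, against 334, 342 and 236 FPKM without. On PLLA it had 245, 260.4 and 401 FPKM with ultrasound, against 235, 246 and 259.99 FPKM without. The groups overlapped in every comparison of 2 groups. Timp3 had 51.2, 49.0 and 59.9 FPKM on PLLA/ZnO@Col +US, against 54.1, 82.0 and 35.9 FPKM on PLLA/ZnO@Col -US. On PLLA/ZnO it had 61.2, 64.7 and 42.3 FPKM with ultrasound, against 58.8, 59.5 and 67.7 FPKM without. PLLA gave 65.4, 50.7 and 73.1 FPKM with ultrasound, against 76.9, 74.8 and 65.7 FPKM without. Its highest and lowest levels were both on PLLA/ZnO@Col -US, in replicates 2 and 3. Timp1 lies within Syn1, which is on the opposite strand and had 7.79 to 19.8 FPKM. Timp3 lies within Syn3, also on the opposite strand and at or below 0.0743 FPKM. Timp2 overlaps Cep295nl, which is on the same strand, at 0.770 to 2.19 FPKM. Whether counting used strand is not given in the sources used here, and strand would not separate Timp2 from Cep295nl. How reads were shared between these pairs is thus uncertain.

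**Figure D3:**
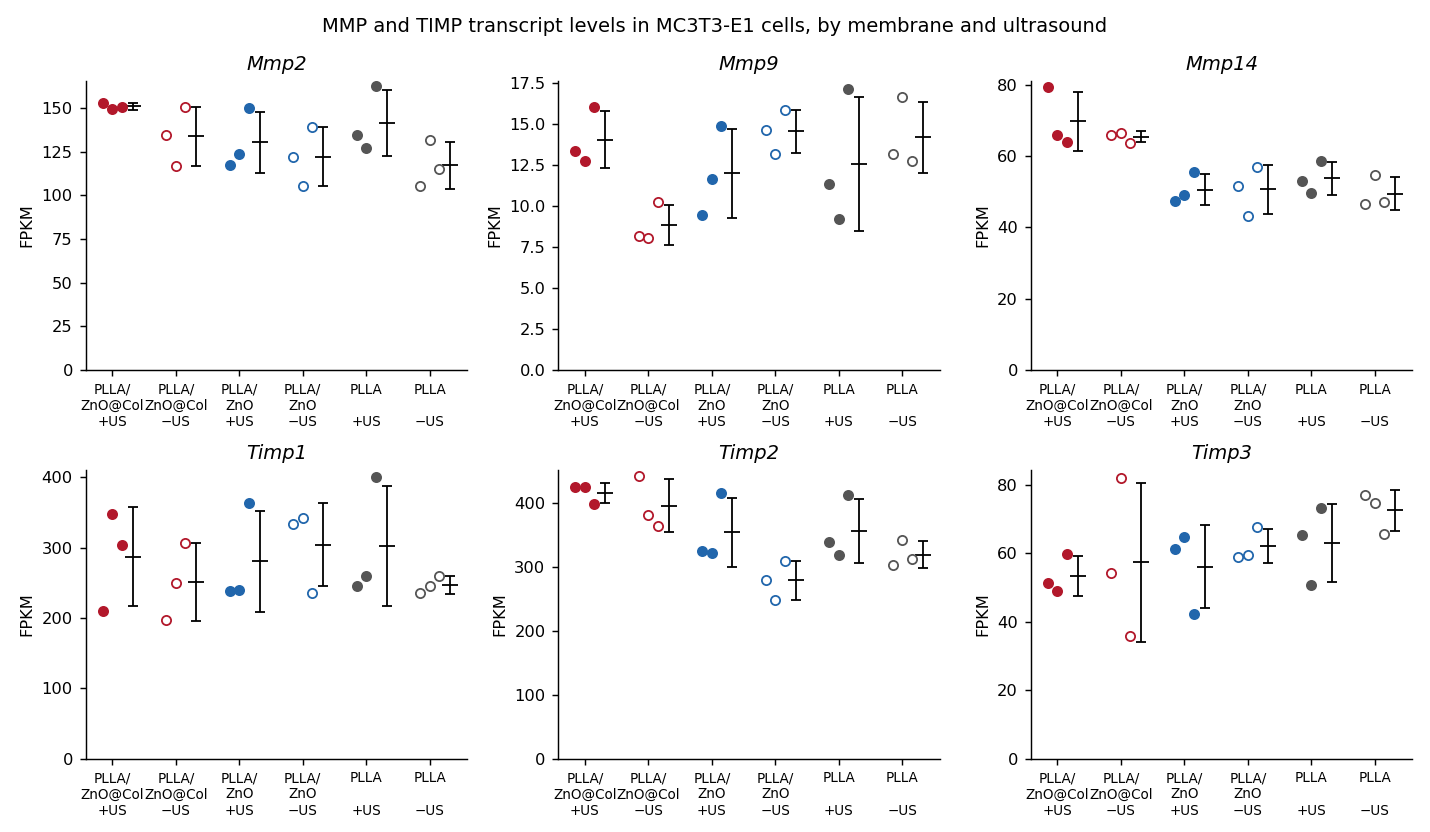
Levels in FPKM of Mmp2, Mmp9, Mmp14, Timp1, Timp2 and Timp3, 1 panel per gene, with the 6 groups along the x axis, 1 point per library and black bars for the mean ± SD of 3 libraries (filled with ultrasound, open without; red PLLA/ZnO@Col, blue PLLA/ZnO, grey PLLA). In the Mmp14 panel the 6 red points, at 63.7 to 79.3 FPKM, lie above all others, and in the Mmp9 panel the open red points, at 8.06 to 10.2 FPKM, are the lowest group.

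Ultrasound was compared with its absence on each membrane. On PLLA/ZnO@Col only Mmp9 did not overlap, as described above. On PLLA/ZnO only Timp2 did not overlap, and it was higher, which 6.82% of tested genes were, with a log2 fold change of 0.34 (SE 0.14, edgeR adjusted p = 0.937). On PLLA no member was free of overlap, although 10.8% of tested genes were in 1 direction or the other. Averaged over the 3 membranes, Timp2 was at 0.18 (SE 0.08), Mmp2 at 0.16 (SE 0.08) and Mmp13 at -1.50 (SE 0.64), each with an edgeR adjusted p of 0.363. Mmp13 was at 0.09 in that average without replicate 2 of PLLA/ZnO@Col -US. By edgeR 0 of 11936 genes (0%) passed in each of these 4 comparisons, with 976 genes on PLLA/ZnO@Col, 387 on PLLA/ZnO, 52 on PLLA and 1444 in the average at an unadjusted p under 0.05. DESeq2 called 3, 5, 0 and 1 genes in the same order, and limma 0 in all. The 4 libraries with few Y-linked reads were all ultrasound libraries. Replicate 3 of PLLA/ZnO +US and replicate 3 of PLLA +US had the highest Timp2 of their groups, 416 and 414 FPKM. They also had the highest Mmp2, 149.9 and 162 FPKM. On PLLA/ZnO@Col +US, replicates 2 and 3 were not the highest for either gene. The part of the Y-linked difference in the ultrasound changes was not tested.

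Zinc oxide was compared with plain PLLA at each ultrasound state. Without ultrasound Mmp13 was the member that did not overlap. It was at 1.60 to 3.13 FPKM on PLLA/ZnO -US, against 1.22 to 1.33 FPKM on PLLA -US, a log2 fold change of 0.98 (SE 1.09, edgeR adjusted p = 1.0), and 7.61% of tested genes were higher with no overlap. With ultrasound it was at 1.27 to 2.15 FPKM on PLLA/ZnO +US, against 0.860 to 1.34 FPKM on PLLA +US, and the groups overlapped. No member was free of overlap with ultrasound, although 7.93% of tested genes were. Mmp14 was nearly level in both, at 0.05 (SE 0.13) without ultrasound and -0.04 (SE 0.13) with it. By edgeR 0 of 11936 genes (0%) passed in either comparison. At an unadjusted p under 0.05 there were 142 genes without ultrasound and 151 with it, DESeq2 called 1 and 2 genes, and limma called 0 in both. A test of any difference among the 6 groups called 0 genes by edgeR (0%), with 1285 at an unadjusted p under 0.05, 506 by DESeq2 and 0 by limma. In it Mmp14 had the lowest adjusted p of the members by edgeR, 0.198, followed by Timp2 with 0.256.

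**Figure D4:**
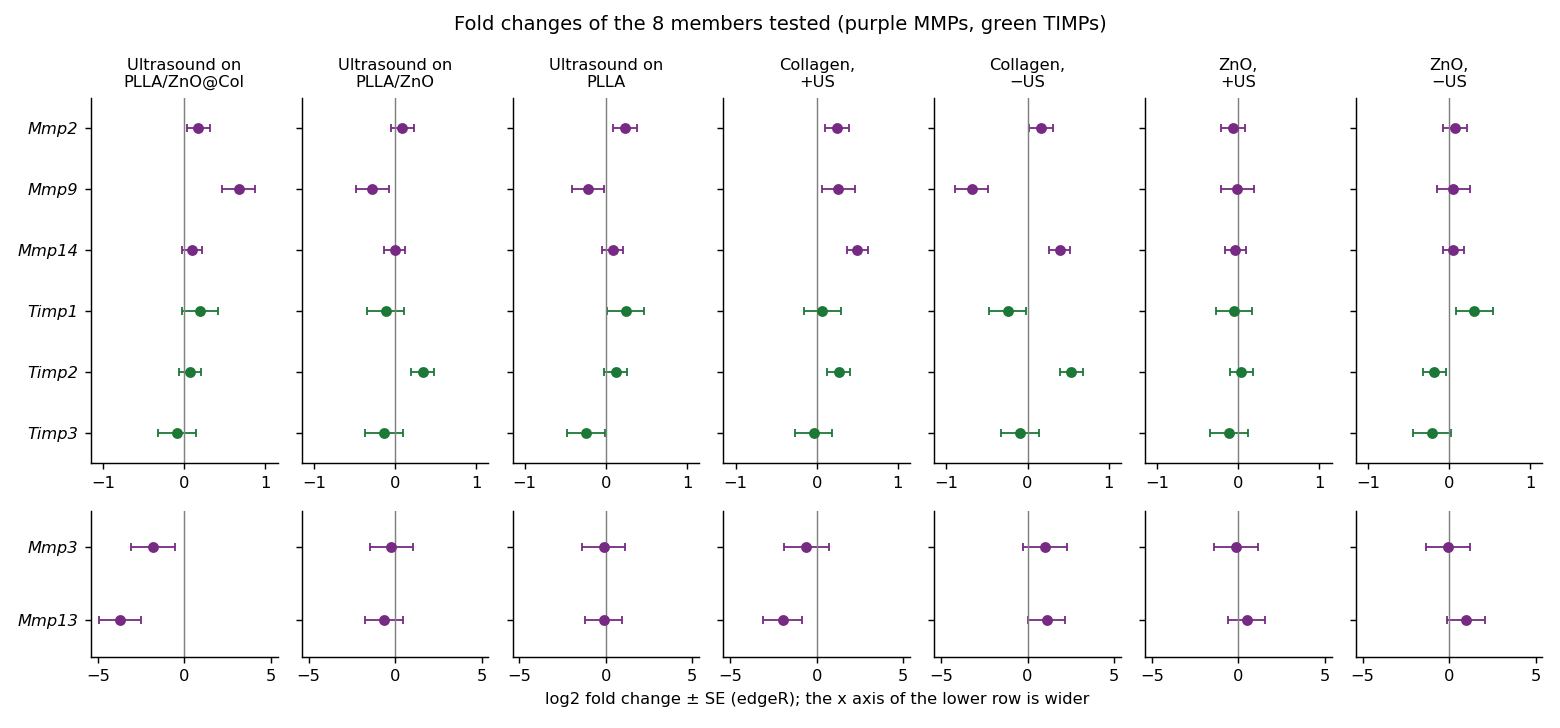
Log2 fold changes ± SE from edgeR (x axis) of the 8 tested members (rows; purple MMPs, green TIMPs), with 1 column of panels per comparison. The lower row of panels holds Mmp3 and Mmp13 on a wider axis, since their SEs of 1.08 to 1.29 exceed the 0.13 of Mmp14. For collagen, Mmp14 lies at 0.40 without ultrasound and 0.50 with it.

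The 8 lists of related genes, 105 genes of which 72 were tested, were set beside the members. None of the 72 passed in any comparison of 2 groups by edgeR, with 0 to 15 of them at an unadjusted p under 0.05, and limma on log2(FPKM + 1) called none either. DESeq2 called Adamts2, Jun and Tgfb1 for collagen without ultrasound and Csf1 and Jun with it. In the averaged collagen contrast 4 of the 72 rose and none fell by edgeR, where 2.75% of all tested genes were called. DESeq2 called 8 of the 72 there and limma 2, Jun and Tgfb1. Among 16 tested inducers of MMP genes, 3 rose: Jun, an AP-1 subunit, by 0.58 on the log2 scale (SE 0.09, edgeR adjusted p = 0.020), Tgfb1, a growth factor, by 0.62 (SE 0.12, edgeR adjusted p = 0.0218), and Csf1, a cytokine of macrophages and osteoclasts, by 0.40 (SE 0.09, edgeR adjusted p = 0.0343). The median log2 fold change of those 16 genes was 0.34, against 0.01 for all tested genes. Among 8 tested activators and cell-surface regulators, Furin, a protease that activates proMMP14, rose by 0.40 on the log2 scale (SE 0.10, edgeR adjusted p = 0.0397).

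When the 3 libraries that lack Y-linked reads were left out, the log2 fold change was 0.40 for Jun, 0.45 for Tgfb1, 0.41 for Csf1 and 0.48 for Furin. PLLA/ZnO@Col -US was then replicate 2 alone. Without the 4 with few, the changes were 0.65, 0.85, 0.34 and 0.42 in the same order. PLLA/ZnO@Col +US was then replicate 1 alone, which lacks Y-linked reads. All 4 changes stayed positive over 26 alternatives, and they passed in 17 for Jun, 16 for Tgfb1 and 7 each for Csf1 and Furin. The adjusted p ran up to 0.0817 for Jun, 0.101 for Tgfb1, 0.188 for Csf1 and 0.209 for Furin. Jun missed the threshold without any 1 of replicates 1 and 2 of PLLA/ZnO -US, PLLA/ZnO +US and PLLA/ZnO@Col +US and replicate 1 of PLLA/ZnO@Col -US, and Tgfb1 without these or replicate 1 of PLLA -US. Csf1 and Furin kept the call in 4 of the 18 fits that left out 1 library, those without replicate 2 or 3 of PLLA/ZnO@Col -US, replicate 3 of PLLA/ZnO +US or replicate 3 of PLLA +US.

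The levels of those 4 genes overlapped between membranes to different degrees. Jun lay at 43.4 to 58.8 FPKM on PLLA/ZnO@Col, against 33.1 to 39.4 FPKM on PLLA/ZnO, with no overlap, but PLLA at 35.8 to 51.0 FPKM overlapped both. Tgfb1 lay at 9.36 to 14.1 FPKM on PLLA/ZnO@Col, against 6.34 to 10.9 FPKM on PLLA/ZnO. Furin lay at 11.1 to 16.3 FPKM on PLLA/ZnO@Col, against 9.16 to 13.4 FPKM on PLLA/ZnO. Csf1 lay at 195 to 285 FPKM on PLLA/ZnO@Col, against 161 to 205 FPKM on PLLA/ZnO, and at 206 to 246 FPKM on PLLA.

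In the same contrast none of 8 tested ADAM and 9 tested ADAMTS proteases passed by edgeR, although DESeq2 called Adamts2, with medians of -0.23 and -0.41 on the log2 scale. None of 6 tested genes of plasminogen activation, 7 cathepsins and other matrix proteases, 4 other MMPs or TIMPs and 14 MMP substrates passed by edgeR either, with medians between -0.05 and 0.16. The most abundant tested genes of these lists, by mean FPKM, were Spp1 at 1509.7 and Col1a1 at 930.2 among the substrates and Bsg at 386 and Lrp1 at 289 among the activators and cell-surface regulators. Ctsd at 251 and Ctsb at 100.7 led the cathepsins, and Csf1 at 216 and Junb at 74.7 the inducers. The plasminogen activator gene Plau was at 24.2. Adam9 was at 27.3, Adam10 at 24.1, Adamts1 at 4.99 and Adamts14 at 4.95. Of the other MMPs and TIMPs, Mmp19 was at 15.3 and Mmp11 at 13.4.

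The summed FPKM of the 6 MMPs divided by that of the 3 TIMPs stayed within 0.255 to 0.358 over the 18 libraries. It averaged 0.314 ± 0.0404 on PLLA/ZnO@Col +US, 0.308 ± 0.00892 on PLLA/ZnO@Col -US, 0.284 ± 0.0143 on PLLA/ZnO +US, 0.297 ± 0.0478 on PLLA/ZnO -US, 0.293 ± 0.0198 on PLLA +US and 0.286 ± 0.0203 on PLLA -US (SD, n = 3 each). These means differed by less than the largest SD. Most of both sums came from Mmp2, Mmp14, Timp1 and Timp2, so the ratio says little about the scarce chromosome 9 genes. Without Mmp2 and Timp2 the ratio averaged 0.261 ± 0.0828 on PLLA/ZnO@Col +US and 0.272 ± 0.0474 on PLLA/ZnO@Col -US. It then averaged 0.196 ± 0.0152 on PLLA/ZnO +US, 0.194 ± 0.0493 on PLLA/ZnO -US, 0.192 ± 0.0250 on PLLA +US and 0.207 ± 0.0204 on PLLA -US (SD, n = 3 each). Collagen libraries, from 0.202 upward, overlapped the others, which reached 0.248.

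Some pairs of members moved together over the 18 libraries and others did not. The libraries share membranes, depth and those that stand apart, so the correlations only describe these data. On log2(FPKM + 1), Pearson's r ran from -0.55 for Mmp2 with Mmp13 to 0.91 for Mmp3 with Mmp13. It was 0.82 for Mmp14 with Timp2, 0.76 for Mmp2 with Timp2 and 0.72 for Mmp2 with Mmp14. Their proteins are the enzyme, activator and cofactor of proMMP2 activation, but genes outside the members reached 0.95 with Mmp14 and 0.94 with Timp2. Mmp3 and Mmp13 had an r of 0.91, and 0.75 without replicate 2 of PLLA/ZnO@Col -US. Mmp10 had an r of 0.86 with Mmp3 and 0.85 with Mmp13, and 0.54 and 0.50 without that library. Without that library Mmp13 had an r of -0.83 with Mmp14 and -0.84 with Timp2, against -0.26 and -0.39 with it.

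The tested genes most like each member by the same measure over the 18 libraries were found by their r. Mmp14 was most like Zswim8 (0.95), Gaa (0.95) and Zfp319 (0.93), and Timp2 most like Pml (0.94), Eif4ebp2 (0.94) and Sgsh (0.94). Gaa and Sgsh encode lysosomal enzymes. Mmp2 was most like Slc38a10 (0.94), Nucb1 (0.94) and Pik3r2 (0.92), and Mmp9 most like Nfkbie (0.84), Tapbp (0.82) and Tap2 (0.80). Nfkbie encodes an inhibitor of NF-kappaB, and Tapbp and Tap2 serve antigen presentation. Mmp3 was most like Ctsl (0.96), Vegfa (0.91) and Mmp13 (0.91), and Mmp13 most like Mmp3 (0.91), Ctsl (0.91) and Sox4 (0.90). Without replicate 2 of PLLA/ZnO@Col -US those of Mmp3 and Mmp13 were 0.75 to 0.89. Timp1 was most like Dhrs1 (0.93), Dtnbp1 (0.93) and Nt5c (0.91), and Timp3 most like Tanc2 (0.95), Ly75 (0.95) and Pdpk1 (0.95).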

How the data were processed

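RNA sequencing of polyadenylated RNA was available for 18 MC3T3-E1 libraries, 3 in each of 6 groups set by the titles. Trimming used cutadapt 1.9, quality reports came from FastQC and GRCm38 was the genome, per the submitters' processing notes. Which aligner and counter were run, and whether strand was used, is not given in the sources used here. Whole-number counts per gene and FPKM values were deposited by the authors, both named per the file headers. Genes at 1 FPKM or more in at least 3 libraries (11936 of 30452) were tested. Counts were normalized by TMM and tested with edgeR 4.0.16 (quasi-likelihood F-test, R 4.3.3) in 1 fit of all 18 libraries with 1 mean for each group (12 residual degrees of freedom). Tests were two-sided, with Benjamini-Hochberg adjustment over all tested genes within a contrast and a threshold of 0.05. The script was tested on simulated data.

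Alternatives were DESeq2 1.42.0, RLE size factors, no filter, limma 3.58.1 on log2(FPKM + 1) and log2(FPKM + 0.1), only the groups compared, a replicate block, and leaving out each library. Depth ran from 48307580 to 78039543 counts per library. No 2 libraries of a group agreed within sampling noise. The members and the lists were chosen with earlier results of these data known. Named genes were all members, list genes past the threshold, the 2 most abundant tested genes of each list, and the 3 genes most like each member. An item of these lists is not reported here. Promoter windows came from RefSeq (GRCm38.p6).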

Additional observations from a re-analysis of the deposited data

How the results depend on the processing

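Over the planned contrasts and the added one, 88 fold changes of members were recomputed to give 2360 values, which do not include the test of any difference. Of these, 2204 kept direction and side of the threshold, 11 newly passed it, 34 no longer passed it, 110 were uncalled values that changed sign, and 1 reversed. The reversed one was Mmp13 for collagen without ultrasound, at -3.69 without replicate 2 of PLLA/ZnO@Col -US, within a range of -3.69 to 1.69 when 1 library was left out. The cause was not tested.

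DESeq2 called 5 genes for ultrasound on PLLA/ZnO, 3 on PLLA/ZnO@Col, 1 averaged over membranes, 1 for zinc oxide without ultrasound, 2 with it, 407 for collagen without ultrasound, 47 with it, 962 for collagen averaged over ultrasound and 506 for any difference. For that averaged collagen contrast, limma called 199 genes on log2(FPKM + 1) and 181 on log2(FPKM + 0.1), and the fit without a filter called 0. Limma on log2(FPKM + 0.1) called 1 gene for collagen without ultrasound.

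Leaving out libraries that stand apart was chosen after seeing the data. Without the 3 lacking Y-linked reads, 111 genes were called for ultrasound on PLLA/ZnO@Col, 166 for collagen without ultrasound, 1044 for ultrasound averaged over membranes, 13 for the difference of ultrasound changes between PLLA/ZnO@Col and PLLA/ZnO, and 25 for any difference. Mmp13 then passed at -4.86 for ultrasound on PLLA/ZnO@Col, -1.87 averaged over membranes, -4.23 for the difference, 2.65 for collagen without ultrasound and in the test of any difference. Mmp3 then passed at -2.74 for ultrasound on PLLA/ZnO@Col, 2.50 for collagen without ultrasound and -1.02 averaged over membranes. PLLA/ZnO@Col -US is then replicate 2 alone, which is assumed to vary like the other groups. Leaving out the 4 with few leaves PLLA/ZnO@Col +US with replicate 1 alone, which lacks Y-linked reads, under the same assumption. Without the 4 with few Y-linked reads, 83 genes were called for collagen without ultrasound, 1 with it, 540 for collagen averaged over ultrasound and 6 for any difference.

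Leaving out 1 library in turn gave 0 to 1 genes for ultrasound on PLLA/ZnO, 0 to 38 on PLLA/ZnO@Col, 0 to 1 averaged over membranes, 0 to 1 for zinc oxide with ultrasound, 0 to 1039 for collagen without ultrasound, 0 to 1577 averaged over ultrasound, 0 to 1 for both differences of ultrasound changes, and 0 to 211 for any difference.

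The labels give replicates only a number. Of 45 pairs of libraries with the same number, 16 had deviations from their group means that correlated above 0.1. Over the 45 pairs r ran from -0.638 to 0.788, and 9 of 18 libraries correlated best with their own number. Because r ran both ways, this check cannot decide whether the numbers pair the samples, and the main fit used no pairing. With the replicate block 0 genes were called in the planned contrasts, and Timp2 had an adjusted p of 0.0549 in the added collagen contrast. Counting error weighs most on low counts. Mmp3 had 0 to 614 counts per library, with 2 libraries at 0, Mmp10 had 12 to 498 and Mmp13 had 20 to 2775. The part of counting error in the spread of these genes was not tested.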
